A study of Mus musculus with 37 samples.

Results

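The oocyte-expressed Nlrp genes are a family of paralogs whose transcripts mouse oocytes store during growth, and 10 of them are described here across meiotic maturation. The members are Nlrp2, Nlrp4a, Nlrp4b, Nlrp4c, Nlrp4e, Nlrp4f, Nlrp9a, Nlrp9b, Nlrp9c and Nlrp14. They were taken by symbol from a list of Nlrp paralogs of the oocyte other than Nlrp5, and make up 10 of the 54752 genes counted in the series. The list is not complete: Nlrp4g, also counted in these oocytes, is not on it and is given with the other NLR genes. By the GRCm38 (mm10) annotation all are protein-coding, 9 lie on chromosome 7 and 1, Nlrp4f, lies on chromosome 13.

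NLRP proteins carry a pyrin domain, a nucleotide-binding NACHT domain and leucine-rich repeats, and the best known of them assemble inflammasomes in immune cells. A separate branch of the family is expressed mainly in the germ line, and in rodents the Nlrp4 and Nlrp9 genes of that branch multiplied by duplication. Several are maternal-effect genes, whose products are laid down in the egg and used by the early embryo before its own genome takes over.

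RNA was sequenced from 37 single oocytes of young adult C57BL/6 females, by full-length amplification of polyadenylated RNA (Smart-seq2). All females received PMSG, a gonadotropin that stimulates follicle growth. Germinal vesicle (GV) oocytes, arrested in prophase of meiosis, came from the ovaries: 6 in batch A and 10 in batch B. The 6 metaphase II (MII) oocytes of batch A were collected from the ampulla after a further injection of hCG, which triggers ovulation. The 15 metaphase I (MI) oocytes of batch B were GV oocytes cultured in M16 medium. So MI and MII differ in batch, and in maturing in culture or in the animal, as well as in stage. Zona and polar body were removed from all oocytes. The replicates are separate oocytes whose animals are not stated, so the p-values measure the spread between oocytes.

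Each oocyte gave between 2709247 and 19390137 counts estimated by RSEM, a program that shares reads between similar transcripts. The members took 0.579% ± 0.166 of them in GV oocytes of batch A (SD, n = 6) and 0.372% ± 0.0652 in MII oocytes (n = 6). In batch B they took 0.338% ± 0.0679 in GV oocytes (n = 10) and 0.323% ± 0.0891 in MI oocytes (n = 15). Every member was counted in every oocyte, with 29 counts at the lowest and 39010 at the highest, and all 10 passed the filter on low counts in both batches.

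A few libraries stood apart. Genes with a count numbered 29816 in MII oocyte 1 and 19574 to 22598 in MII oocytes 2 to 6. The library of MI oocyte 15 was the shallowest, with 2709247 counts against at least 10050990 in each other MI oocyte. In MI oocytes 4, 8 and 9 the HTSeq count of a gene, the study's second way of counting, was typically 1.07 to 1.13 times its RSEM count, against 1.98 to 2.2 in the other 34 oocytes. Spike-in RNA gave 44663 to 128319 counts in GV oocytes and 120280 to 143062 in MII oocytes of batch A, but at most 32 in an oocyte of batch B.

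Levels of different members are compared as TMM-normalized counts-per-million values (CPM) divided by transcript length in kilobases, since a longer transcript gives more reads. Nlrp14, a maternal-effect gene also expressed in male germ cells, had the highest median level in batch A, 866 in GV and 592 in MII oocytes. Nlrp4f, whose loss lowers female fertility, came next with 408.5 in GV and 473 in MII oocytes. Nlrp14 lay above Nlrp4f in 6 of 6 oocytes of either stage, although their ranges overlapped at MII. In batch B the pair lay close together: Nlrp14 had medians of 383 in GV and 347 in MI oocytes, and Nlrp4f 365 and 373. Nlrp14 was the higher of the pair in 5 of 10 GV oocytes and Nlrp4f in 8 of 15 MI oocytes. So on the per-kilobase scale they did not differ beyond their spread there. In CPM, not divided by length, their ranges were apart in these GV oocytes, 778 to 1093 for Nlrp14 and 562 to 777 for Nlrp4f. At MI their CPM ranges overlapped.

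Between these leaders and the rest lay a clear step. In GV oocytes of batch A the order after Nlrp4f was Nlrp4b, Nlrp9c, Nlrp9b, Nlrp2, Nlrp4a and Nlrp9a, from a median of 157 down to 80.7 on the same per-kilobase scale, and each neighbouring pair among them overlapped. Nlrp4e followed at 50.1, below Nlrp9a in 6 of 6 oocytes. Nlrp4c stood far below all others at 5.01. In MII oocytes the order was Nlrp9c, Nlrp4b, Nlrp4a, Nlrp9b, Nlrp9a, Nlrp2, Nlrp4e and Nlrp4c, and Nlrp2 had moved from sixth of the 10 to eighth. Among those 8, the ranges of Nlrp4b and Nlrp4a, of Nlrp4a and Nlrp9b, and of Nlrp4e and Nlrp4c were apart at MII, and all other neighbours overlapped.

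In batch B the order below the leading pair was Nlrp4a, Nlrp4b, Nlrp9c, Nlrp9b, Nlrp2, Nlrp9a, Nlrp4e and Nlrp4c, identical in GV and MI oocytes. Nlrp4a led it with a per-kilobase median of 159.8 in GV and 155 in MI oocytes, and Nlrp4c closed it with 3.11 and 3.29. Neighbours overlapped in both stages except Nlrp2 over Nlrp9a and Nlrp4e over Nlrp4c. Nlrp4e, a gene needed by preimplantation embryos, had a per-kilobase median of 23.9 in GV and 18.8 in MI oocytes.

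**Figure D1:**
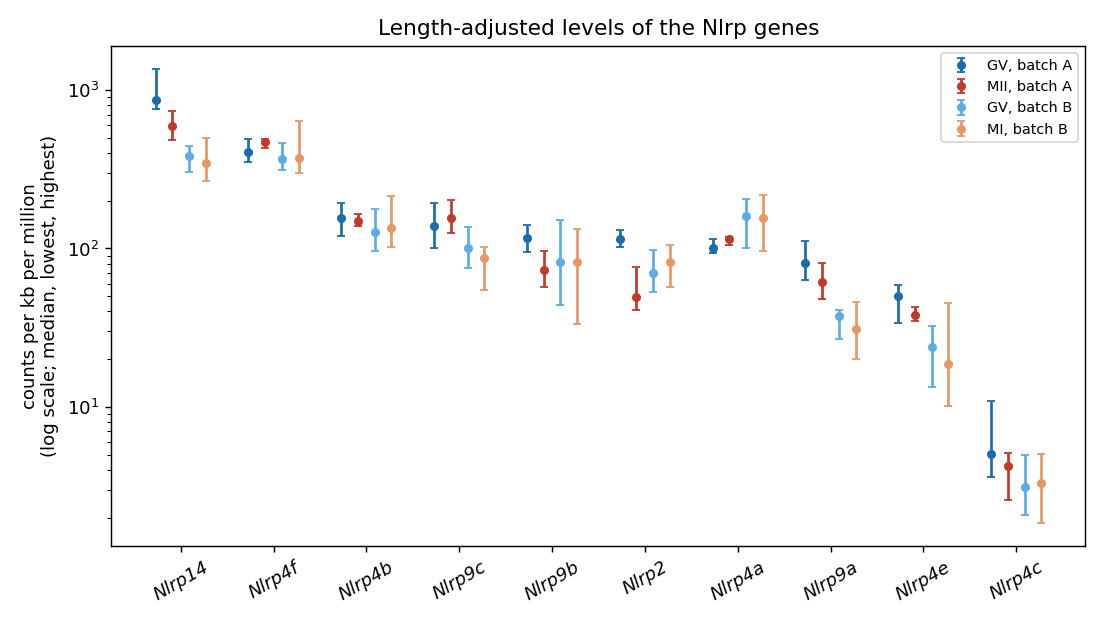
Level of each Nlrp gene per kilobase of transcript, on a log axis, by stage and batch. Points are group medians and bars run from the lowest to the highest oocyte. Nlrp14 and Nlrp4f lie above all others in each group and Nlrp4c lies lowest, with group medians from 3.11 to 5.01.

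The comparison of GV with MII oocytes in batch A asks how stored transcripts change by the time of ovulation. Relative to all transcripts, Nlrp2 fell by 1.09 on the log2 scale (SE 0.17, n = 6 and 6), the only member past an adjusted p of 0.05 and a fold of 2. Nlrp14 and Nlrp9b fell by less than that fold. Of the 10 members, 7 had a negative estimate and 3 a positive one, Nlrp4a, Nlrp4f and Nlrp9c, and these 3 turn negative when libraries are scaled to the spike-in RNA. The members' median was -0.31, against 0.01 over all 12929 genes tested with edgeR.

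Nlrp2 (ENSMUSG00000035177.8, chr7:5298547-5351035, minus strand) is a maternal-effect gene whose loss in the mother disturbs imprinting and early development of her offspring. In GV oocytes of batch A it had 301.6 CPM at the lowest, 357 at the median and 431.5 at the highest. In MII oocytes the values were 131, 156 and 251.5 CPM. All 6 MII oocytes lay below all 6 GV oocytes, and the highest MII value belonged to oocyte 2. The fold was 2.13, with a 95% interval of -1.45 to -0.73 for the log2 change and an adjusted p of 0.000431. Without MII oocyte 1 the log2 change was -1.06, still called. Over 20 alternative settings the change ran from -1.81 to -1.02 and the adjusted p from 1.49e-07 to 0.00211. It is 1 of 10 members called lower, beside 6.32% of all genes tested, and 1 of 10 with every MII oocyte below every GV oocyte, beside 5.71% of genes. No member had every MII oocyte above every GV oocyte (0 of 10), which 4.08% of genes did.

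Nlrp14 (ENSMUSG00000016626.10, chr7:107166990-107198102, plus strand) ranged from 1612 over a median of 1993 to 3524 CPM in GV oocytes, and from 1025 over 1289 to 1706 CPM in MII oocytes. The groups overlapped, since MII oocyte 2 exceeded the lowest GV oocyte. Its log2 change was -0.79 (SE 0.195, fold 1.73, adjusted p = 0.0102), and the adjusted p stayed under 0.05 in all 20 alternatives, from 8.78e-05 to 0.0247.

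Nlrp9b (ENSMUSG00000060508.16, chr7:19991465-20073306, plus strand), known outside the oocyte as a sensor of viral RNA in the gut epithelium, ranged from 296.6 over 357 to 424 CPM in GV oocytes and from 177 over 224 to 297 CPM in MII oocytes. The groups met at a single point, where MII oocyte 2 only just passed GV oocyte 1. Its log2 change was -0.65 (SE 0.14, fold 1.57, adjusted p = 0.00412). Over the 20 alternatives the adjusted p ran from 0.000107 to 0.0707, and only a model of both batches with batch as a covariate brought it over 0.05. With Nlrp2, that makes 3 of 10 members lower at any fold, beside 11.5% of all genes tested.

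**Figure D2:**
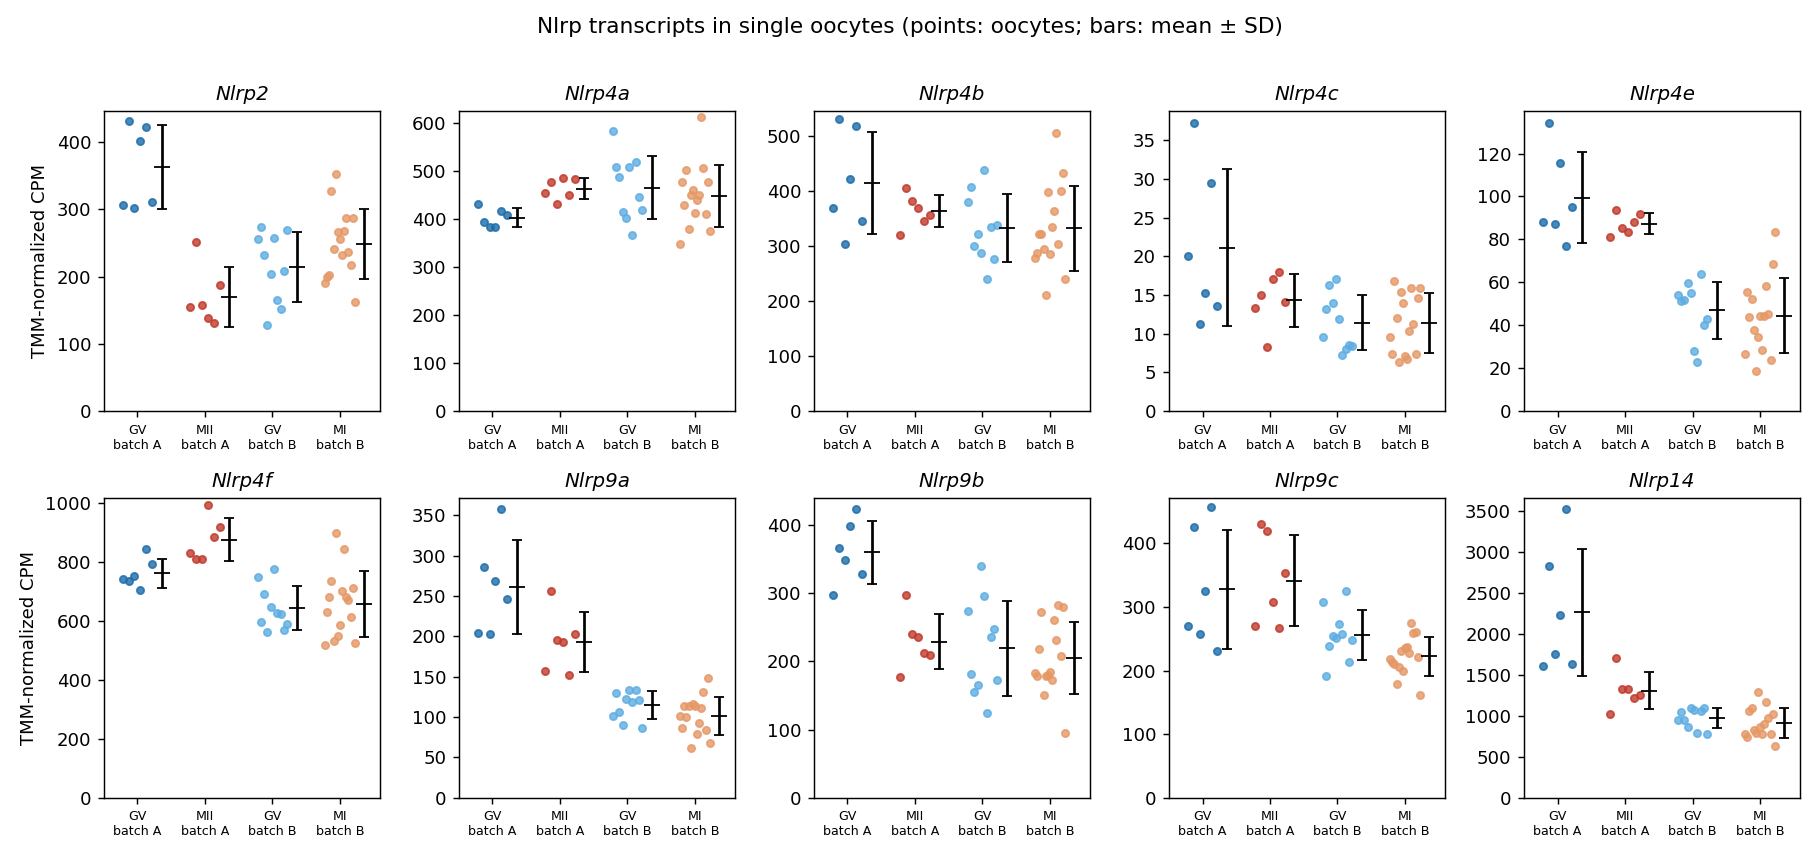
Normalized counts (CPM) of each of the 10 genes in every oocyte, with GV and MII oocytes of batch A beside GV and MI oocytes of batch B. Bars mark the mean and SD. Nlrp2 separates GV from MII oocytes, with medians of 357 and 156, while each gene's GV and MI oocytes overlap.

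The other Nlrp9 genes did not pass the test in batch A. Nlrp9a ranged from 202 over 257.5 to 357 CPM in GV oocytes and from 153 over 194 to 256 in MII oocytes, with a log2 estimate of -0.44 (SE 0.164, adjusted p = 0.0702). Nlrp9c ranged from 231 over 298 to 457 CPM and from 267 over 331 to 431, with an estimate of 0.06 (SE 0.188, adjusted p = 0.859). That last sign rests on single oocytes: it was -0.02 without GV oocyte 6, -0.01 without MII oocyte 2, and just below 0 without GV oocyte 3 or MII oocyte 3.

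The Nlrp4 genes did not pass the test in batch A. Nlrp4a, the steadiest member, lay between 383 and 432 CPM in GV oocytes and between 431 and 486 in MII oocytes, and only the extremes met. Nlrp4f lay between 705 and 844.5 CPM in GV and between 809.5 and 996 in MII oocytes, again with some overlap. Their log2 estimates were both 0.20 (SE 0.102 and 0.108, adjusted p = 0.173 and 0.203). Nlrp4b and Nlrp4e both had an estimate of -0.19 (adjusted p = 0.38 and 0.37), and Nlrp4c, with 8.22 to 37.3 CPM over the 12 oocytes of batch A, had -0.56 (SE 0.284, adjusted p = 0.173). No member was higher at any fold by edgeR (0 of 10, beside 9.06% of genes), although 4 of 10, all of them lower, had an unadjusted p under 0.05, beside 4441 of 12929 genes in either direction, and DESeq2 called 1 member, Nlrp2.

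All these changes are relative abundances. Scaled to spike-in counts, the median gene moved to -0.72, with 131 genes called higher and 3788 lower, against 278 and 817 before. Without spike-in scaling the 278 genes higher became 163 when MII oocyte 1 was left out, and 101 with HTSeq counts. With spike-in scaling 5 members were called lower: Nlrp2 at -1.81, Nlrp14 at -1.52, Nlrp9b at -1.37, Nlrp4c at -1.31 and Nlrp9a at -1.17. The signs flipped for Nlrp4a (-0.55, adjusted p = 0.0578), Nlrp4f (-0.55, adjusted p = 0.0545) and Nlrp9c (-0.69, adjusted p = 0.0334), whose adjusted p otherwise reached 0.513, 0.534 and 0.996 at most over the 20 alternatives.

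Shares within the family do not depend on how a library is scaled. Nlrp2 made up 6.93% ± 0.536 of the summed CPM of the 10 genes in GV oocytes and 4.17% ± 0.751 in MII oocytes (SD, n = 6 and 6), with the ranges 5.98% to 7.63% and 3.33% to 5.3% apart. Nlrp14 made up 42% ± 5.07 and 32.2% ± 2.22, again with every GV oocyte above every MII oocyte. Nlrp4a went the other way, from 7.92% ± 1.64 to 11.5% ± 1.07, and its ranges of 5.89% to 9.96% and 10.05% to 13.04% were apart too. Nlrp9c did the same, with 5.25% to 6.9% in GV and 7.09% to 10.3% in MII oocytes. Shares of a sum are bound to each other, so a lower share of Nlrp14 goes with higher shares of other members. Nlrp4f made up 14.9% ± 2.8 and 21.8% ± 2.77, with MII oocyte 2 inside the range of the GV oocytes. The summed level of the family was 4342 to 7069 CPM in GV and 3485 to 4742 CPM in MII oocytes, which overlap.

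**Figure D3:**
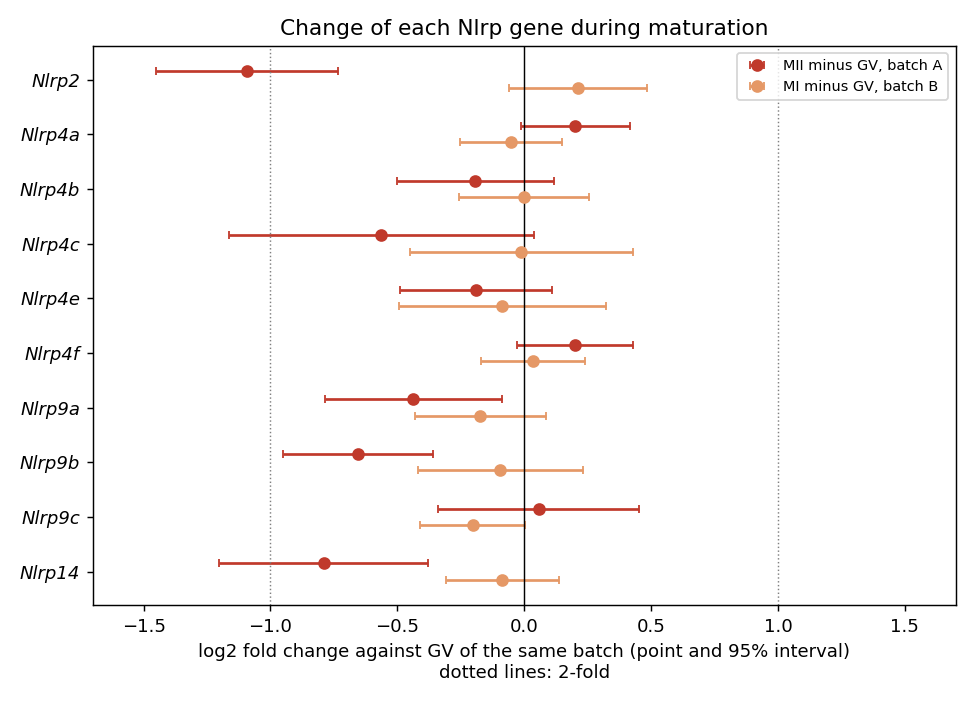
Log2 change of each of the 10 genes from GV to MII in batch A and from GV to MI in batch B, with 95% intervals, relative to all transcripts. Nlrp2 lies at -1.09 for MII and 0.21 for MI, and with spike-in scaling the positive MII estimates of Nlrp4a, Nlrp4f and Nlrp9c become -0.55, -0.55 and -0.69.

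The comparison of GV with MI oocytes in batch B asks what has changed by the first metaphase. No member passed the test there (0 of 10 by edgeR at any fold, beside 0.145% of the 12419 genes tested). By DESeq2 also 0 members were called, and 0 had an unadjusted p under 0.05 in edgeR. The estimates were negative for 8 members and positive for Nlrp2 and Nlrp4f, with a median of -0.07 against 0.02 over all genes. The signs of the estimates nearest to 0, those of Nlrp4b and Nlrp4c, turned in several alternative settings. No member was called without MI oocyte 15, nor without MI oocytes 4, 8 and 9. Spike-in counts were too few in batch B for the other scaling. All 95% intervals of the log2 changes lay within -0.495 and 0.485 in this fit, for levels relative to all transcripts. Over the alternatives the estimate of Nlrp4e reached -0.28.

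Nlrp2 had 127 CPM at the lowest, 220 at the median and 274 at the highest in GV oocytes of batch B, and 161, 241 and 353 CPM in MI oocytes. The groups overlapped over most of their range, and MI oocyte 15, the shallowest library, was the lowest MI value. The log2 estimate was 0.21 (SE 0.134, adjusted p = 0.6). Nlrp14 ranged from 778 over 999.6 to 1093 CPM in GV and from 633 over 861 to 1290.0 CPM in MI oocytes, again overlapping, with an estimate of -0.09 (adjusted p = 0.845). The lowest unadjusted p belonged to Nlrp9c at 0.0527, with a log2 estimate of -0.20 and an adjusted p of 0.462. Its values ran from 191 over 253 to 325 CPM in GV and from 161 over 222 to 275 CPM in MI oocytes.

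Whether MII differed from GV by another amount than MI did was tested directly, each stage against the GV oocytes of its own batch. For Nlrp2 the MII change minus the MI change was -1.23 on the log2 scale (SE 0.231, adjusted p = 0.000794), and over 7 alternatives it ran from -1.29 to -1.17 with adjusted p from 3.13e-05 to 0.00366. It was the only member called, 1 of 10 beside 4.03% of the 15083 genes tested. Nlrp14 differed by -0.62 (SE 0.206, adjusted p = 0.0661), and its adjusted p ran from 0.029 to 0.172 over the 7 alternatives. Nlrp4a differed by 0.33 with an adjusted p of 0.247. Stage, batch and maturing in culture or in the animal cannot be told apart in this difference.

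The tables list 43 transcripts of the members, from 2 for Nlrp4e and Nlrp14 to 8 for Nlrp4f. Of these, 39 reached a mean of 10 counts in a group, 32 of them annotated as coding, and 33 passed the filter in batch A. Between GV and MII, 22 of the 33 had negative and 11 positive estimates, and 15 had an unadjusted p under 0.05, beside 5438 of the 22461 transcripts tested. By edgeR 2 were called lower, beside 4.23% of all transcripts tested, and 6 were lower at any fold, beside 5.81%. None was higher at any fold (0 of 33, beside 3.49%), and DESeq2 also called 2. The share of all transcripts tested whose GV and MII oocytes lay apart was not counted. So the transcripts given below as apart have no such share beside them.

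Nlrp2-201, the full-length coding transcript of Nlrp2, ranged from 288.5 over 347 to 427 CPM in GV and from 128.5 over 153 to 249 CPM in MII oocytes. All MII oocytes lay below all GV oocytes. The log2 change was -1.09 (SE 0.176, adjusted p = 0.0021). This transcript held 97.2% ± 1.45 of the counts of Nlrp2 at GV and 98.7% ± 0.823 at MII, so the change of the gene is that of its main transcript. The short coding transcript Nlrp2-202 ranged from 3.54 over 8.27 to 13 CPM in GV and from 0.443 over 1.77 to 4.25 CPM in MII oocytes, and the groups overlapped. Its log2 change was -2.14 (SE 0.502, adjusted p = 0.0176), and it did not pass with a replicate block (-2.27, adjusted p = 0.0572). Its adjusted p ran from 0.000435 to 0.0572 over 18 alternatives.

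Nlrp14 has a full-length transcript, Nlrp14-201, and a shorter coding one, Nlrp14-202. Nlrp14-201 ranged from 915 over 1334 to 2785 CPM in GV and from 586 over 822 to 1139 CPM in MII oocytes. The groups overlapped only through MII oocyte 2. Its log2 change of -0.98 (SE 0.282, adjusted p = 0.0455) sat at the edge of the fold threshold, and the adjusted p ran from 0.00309 to 0.1 over 18 alternatives. The adjusted p was under 0.05 in 9 of these. It was called in 6, 4 of them with a single oocyte left out (-1.10 without GV oocyte 1, -1.08 without GV oocyte 3, -1.09 without GV oocyte 6 and -1.13 without MII oocyte 2). Nlrp14-202 ranged from 589.5 over 691 to 738 CPM in GV and from 424 over 508 to 567 CPM in MII oocytes, and here every MII oocyte lay below every GV oocyte. It fell by 0.47 on the log2 scale (SE 0.107, adjusted p = 0.0146), with an adjusted p under 0.05 in 16 of 18 alternatives. The exceptions were 0.0663 with no filter and 0.091, the highest, with a replicate block, and the lowest was 0.000119. Nlrp14-201 held 67.3% ± 10.5 of the gene's counts at GV and 61.7% ± 4.35 at MII, a difference within the spread between oocytes.

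Nlrp9b-201, which held 97.3% of the counts of Nlrp9b at GV, ranged from 289 over 347 to 409 CPM in GV and from 172.5 over 219 to 288 CPM in MII oocytes. The MII oocytes all lay below the GV oocytes. Its log2 change was -0.68 (SE 0.132, adjusted p = 0.00698). Nlrp9a-201 fell by 0.64 (SE 0.143, adjusted p = 0.0131). Its adjusted p ran from 0.000314 to 0.0856 over 18 alternatives and exceeded 0.05 with no filter (0.0627) and with a replicate block (0.0856). Nlrp9a-202, the other main transcript of Nlrp9a, had an estimate of -0.33 (adjusted p = 0.355). Among the positive estimates, Nlrp4a-201 was above every GV oocyte in 6 of 6 MII oocytes, with a log2 estimate of 0.26 and an adjusted p of 0.105.

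Between GV and MI no transcript of a member passed (0 of 38 by edgeR, 0 by DESeq2, with 1 of 38 at an unadjusted p under 0.05). Among all 22717 transcripts tested the share called was 0%, and 1615 had an unadjusted p under 0.05. The single transcript was Nlrp9c-204, with a log2 estimate of -0.55 and an adjusted p of 0.484.

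Transcript shares of some members lay apart between the batches. The processed transcript of Nlrp4a, Nlrp4a-203, which has no annotated coding sequence, took 7.03% ± 6.26 of the gene's counts in GV oocytes of batch A (SD, n = 6) and 43.8% ± 12.8 in GV oocytes of batch B (n = 10). MII oocytes had 3.75% ± 2.1 and MI oocytes 44.7% ± 11.3. GV oocytes of batch A reached at most 16.84% and those of batch B began at 16.94%, so the ranges of the same stage were just apart. Within a batch the stages overlapped. Nlrp4a as a gene had a per-kilobase median of 100.6 in GV oocytes of batch A and 159.8 in those of batch B, where only oocyte 7, at 100.7, lay inside the range of batch A. In CPM the medians were 401 and 467 and the ranges overlapped, from 383 to 432 and from 367 to 583. Nlrp4a-203 has 2220 bases against 4259 of Nlrp4a-201, and the per-kilobase level depends on these lengths. Nlrp9b-203 likewise took 0.755% to 3.47% of the counts of Nlrp9b in GV oocytes of batch A and 3.88% to 19.27% in those of batch B. For Nlrp5-202 of the paralog Nlrp5 the ranges were 5.58% to 7.16% and 15.27% to 31.4%. The differences between batches were not tested.

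Members share sequence with each other and with other genes. Of the distinct 50-base words of Nlrp4e transcripts, 36.7% also occur in another annotated gene, most of them in the predicted gene Gm16443. The share was 10.7% for Nlrp4c, most of it with Nlrp4e, 7.79% for Nlrp9b, 6.07% for Nlrp9a and 5.95% for Nlrp4f. Nlrp2, Nlrp4a and Nlrp9c had 2.39%, 2.63% and 2.61%, and Nlrp4b and Nlrp14 had 0% by this count.

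The counting methods were compared by gene. Over 34 oocytes, without MI oocytes 4, 8 and 9, the median gene had an HTSeq count 2.05 times its RSEM count. The ratio was lowest for Nlrp4c at 1.71 and Nlrp4e at 1.81. It was highest for Nlrp2 at 2.42 and Nlrp14 at 2.29. In MI oocytes 4, 8 and 9 the ratio of Nlrp4c lay between 0.385 and 1.13. HTSeq counts gave the same call as RSEM counts for each member between GV and MII.

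The 3′ ends of the main coding transcripts were read because polyadenylation signals and cytoplasmic polyadenylation elements are known to shape the tails of stored oocyte mRNA, and the libraries were primed on poly(A). The signal AATAAA or ATTAAA was found in the last 40 bases of 8 of 10 members, beside 74.8% of 11442 genes with a tested coding transcript. AATAAA was in 6 members (60.2% of genes) and ATTAAA in 4 (17.4%), and some hold both. The element TTTTAT or TTTTAAT was found in the last 100 bases of 3 members, beside 19.1% of genes. Those 3 all hold TTTTAT (14.7% of genes) and 0 hold TTTTAAT (5.65%). Only the transcript strand was searched. TTTTAT can share its last bases with the first of ATTAAA. A match is a description of letters, not of a site in use.

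The 3′ ends of the Nlrp9 genes and of Nlrp2 are shown because Nlrp9b and Nlrp2 fell at MII while Nlrp9c did not pass the test. Each is a window of 30 bases, 5′ to 3′ on the transcript strand, with the signal in capitals. By the GRCm38 (mm10) genome the windows lie at chr7:5298552-5298581 on the minus strand for Nlrp2-201, chr7:26574112-26574141 on the plus strand for Nlrp9a-202, chr7:20062904-20062933 on the plus strand for Nlrp9b-201 and chr7:26364698-26364727 on the minus strand for Nlrp9c-202.
Nlrp2-201: ggtatattggggAATAAAagggaaaacatg
Nlrp9a-202: acaagcacattcAATAAAcactaagcatgt
Nlrp9b-201: acaagcacatttAATAAAcactaagcgtgt
Nlrp9c-202: acaagcacattaAATAAAcactaagcatgt
The Nlrp9 windows are nearly the same: Nlrp9a and Nlrp9c differ at 1 of 30 positions, and Nlrp9b differs from each of them at 2. The Nlrp2 window differs from each at 21.

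The members with TTTTAT are Nlrp4a, Nlrp4c and Nlrp4f, and their windows are shown as all the matches to this element in the family. The element is in capitals. The windows lie at chr7:26476084-26476113 on the plus strand for Nlrp4a-201, chr7:6105106-6105135 on the plus strand for Nlrp4c-201 and chr13:65177128-65177157 on the minus strand for Nlrp4f-201.
Nlrp4a-201: cttttcatccaaTTTTATgtcatctctcac
Nlrp4c-201: ctgttttgtgttTTTTATtaaataataaat
Nlrp4f-201: tgctgttttgtgTTTTATattaaagaatag
None of these 3 genes passed the test in batch A, where 3 of all 10 members were lower at any fold. With spike-in scaling Nlrp4c was called lower (-1.31). A link between the element and the changes was not tested. Nlrp4a-201 had no signal in its last 40 bases, and Nlrp14-201 had neither the signal nor the element in the windows searched.

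Across oocytes of a group the members varied about as much as other genes of some abundance. The coefficient of variation of the median member was 21.9% in GV oocytes of batch A, beside 21% for the median gene of at least 50 CPM, and 17.4% beside 16.7% in MII oocytes. In batch B it was 17.1% beside 21.9% in GV and 21.9% beside 24.3% in MI oocytes. Nlrp4a was the steadiest member in batch A, at 4.81% in GV and 4.65% in MII oocytes. Nlrp4c was the most variable in GV oocytes of that batch, at 48.3% with a mean of 21.1 CPM. The limit of 50 CPM was not applied to the members. By mean level Nlrp4c lay under it in every group, and Nlrp4e in both groups of batch B.

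Members also varied together to different degrees. After subtraction of each group's mean, log2 levels over the 37 oocytes gave a Pearson r between -0.20 and 0.75 for the 45 pairs of members, with a median of 0.30. The highest was Nlrp9a with Nlrp14 (0.75), and the lowest Nlrp4e with Nlrp4f (-0.20). Among 15082 other genes, the one most like Nlrp2 was Npm1, a nucleolar protein gene (r = 0.745, rho = 0.75). Nlrp14 was most like Fbxw19 (0.783 and 0.788) and Nlrp9a most like Fbxw13 (0.77 and 0.74), which encode F-box proteins. The others were Vps41 for Nlrp4a, Ube2v2 for Nlrp4b, Fam107b for Nlrp4c, Atp7a for Nlrp4e, Rock1 for Nlrp4f, Cct8 for Nlrp9b and Sox15 for Nlrp9c, with r from 0.63 to 0.79. For Nlrp4e and Atp7a rho was only 0.38, beside an r of 0.63. These are descriptions over 37 oocytes, and the values of a library share its depth and its composition.

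Nlrp5, the paralog of the subcortical maternal complex that lies beside Nlrp4e on chromosome 7, ranged from 642 over 866 to 1423 CPM in GV and from 548.5 over 606 to 769.6 CPM in MII oocytes. It fell by 0.60 on the log2 scale (SE 0.181, adjusted p = 0.0266), less than Nlrp2 in size, though that difference between the genes was not tested. Of the 6 genes listed for the complex, Ooep (-1.04) and Khdc3 (-1.15) were called lower and Padi6 (-0.77) and Nlrp5 fell at a smaller fold, with a median of -0.68. Zbed3, the most abundant of them in CPM, had an estimate of 0.51 (adjusted p = 0.0799), and -0.20 with spike-in scaling. Without MII oocyte 1, Ooep (-0.97) lay under the fold and Nlrp5 (-0.57) had an adjusted p of 0.0537. In batch B 0 of the 6 were called by edgeR and 0 by DESeq2, with 1 at an unadjusted p under 0.05, Tle6, which fell by 0.59 (adjusted p = 0.0499).

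Of 20 other NLR genes, a list that holds Nlrp5 again, most were nearly silent and 6, Nlrp5 among them, were tested in batch A. Nlrc4 (-1.04) and Naip1 (-1.76), partners in an inflammasome of macrophages, were called lower at MII, although Nlrc4 stood at -0.997, under the fold, without MII oocyte 1. Nlrp4g, a close paralog of Nlrp4f, had means of 135 CPM in GV and 171.5 CPM in MII oocytes, with an estimate of 0.34 (adjusted p = 0.0938) that became -0.36 with spike-in scaling. Nlrc3 rose by 0.94 relative to all transcripts (adjusted p = 0.0254) without reaching the fold, and stood at 0.29 with spike-in scaling (adjusted p = 0.41). The median of the list was -0.13. Between GV and MI 0 of 6 were called by edgeR or DESeq2, and 0 had an unadjusted p under 0.05. The MII change minus the MI change was -1.10 for Nlrc4 (adjusted p = 0.0499) and -1.66 for Naip1 (adjusted p = 0.0255), and without MII oocyte 1 their adjusted p were 0.11 and 0.0528.

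The partners of inflammasome-forming NLRPs were mostly absent beside these Nlrp transcripts. Only Txnip and Nek7, 2 of 10 genes, were tested, and Casp4, Il1b and Aim2 had 0 counts in all GV oocytes of batch A. By edgeR 0 were called over 2-fold in batch A, with 1 at an unadjusted p under 0.05 and 0 called by DESeq2. That gene, Nek7, rose by 0.53 relative to all transcripts (adjusted p = 0.0195), but stood at -0.21 with spike-in scaling (adjusted p = 0.508). In batch B 0 of 2 were called by edgeR or DESeq2, and 0 had an unadjusted p under 0.05.

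Genes named as partners of maternal NLRP proteins include Dnmt1 and Ywhah. These fell at MII by 0.89 (adjusted p = 0.00102) and 0.93 (adjusted p = 0.00437), under the fold threshold. Of these 5 genes, edgeR and DESeq2 called 0 over 2-fold in batch A, with 3 at an unadjusted p under 0.05, and 0 in batch B, with 1. Dnmt1 shared with Nlrp2 a lower change at MII than at MI, with a difference of -1.02 (adjusted p = 0.00768).

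Dormant maternal transcripts, which are recruited to ribosomes at maturation, had a median of 0.42, against -0.31 for the Nlrp genes. Of 11 tested, Plat (0.54), Cnot7 (0.47), Cnot6l (0.41), Dcp1a (0.69) and Dcp2 (0.66) rose at any fold relative to all transcripts, but their estimates with spike-in scaling were negative, from -0.34 to -0.03. Cnot6l did not pass without MII oocyte 1 (adjusted p = 0.0651). Over 2-fold edgeR and DESeq2 called 0, with 7 at an unadjusted p under 0.05, and between GV and MI also 0, with 1. The MII change minus the MI change was positive for Ccnb1 (0.85), Cnot7 (0.73) and Dcp1a (0.76) at any fold.

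Cell type markers were read in the same libraries. The 12 oocyte genes summed to 11540 to 18260 CPM in GV and 9481 to 10850 CPM in MII oocytes of batch A, and to 4061 to 7518 CPM in GV and 3333 to 6065 CPM in MI oocytes of batch B. Between GV and MII, Zp1 (-1.39), Zp2 (-2.14), Zp3 (-2.21) and Figla (-1.16) were called lower and Nobox fell by 0.65, with a list median of -0.35. Between GV and MI 0 of 12 were called by edgeR or DESeq2, with 4 at an unadjusted p under 0.05 and a median of -0.24. The MII change minus the MI change was negative for Zp1 (-1.42), Zp2 (-1.74) and Zp3 (-1.86), and positive for H1foo (0.76) at any fold.

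The 12 granulosa and cumulus markers summed to 27 to 50.1 CPM in GV and 32.2 to 42.2 CPM in MII oocytes of batch A, and to 27.1 to 58 CPM in GV and 16.7 to 79.6 CPM in MI oocytes of batch B, far below the family's sum. The most abundant was Cyp19a1 in 3 groups, and Nr5a2 in MI oocytes. Amh, Foxl2 and Ptx3 had 0 counts in every oocyte of batch B. Gja1 (-3.42) and Ccnd2 (-3.69) were called lower at MI (both adjusted p = 0.0174), but neither with HTSeq counts, with HTSeq counts without MI oocytes 4, 8 and 9, or with a replicate block, where edgeR called 0 genes (927, 885 and 992 at an unadjusted p under 0.05). DESeq2 called both. The other markers tested at MI by edgeR were Has2 (1.21, adjusted p = 0.67), Nr5a2 (0.75, adjusted p = 0.272) and Cyp19a1 (-0.215, adjusted p = 0.742). Of the 5 tested there, 3 had an unadjusted p under 0.05. In batch A Gja1, Ccnd2, Fshr and Inha were too low to be tested. Mean levels there were 3.46 CPM in GV and 0.069 CPM in MII oocytes for Ccnd2, and 1.2 and 0.0173 CPM for Fshr. They were 0.887 and 0.0622 CPM for Inha, and 1.15 and 0.714 CPM for Gja1. Has2 (1.11 and 0.686 CPM) and Foxl2 also had lower means at MII. Means were higher at MII for Cyp19a1 (16.1 and 17.5 CPM), Nr5a2 (14 and 15 CPM), Inhba (0.726 and 0.806 CPM), Tnfaip6, Amh and Ptx3. The genes tested in batch A were Cyp19a1 and Nr5a2, of which 0 were called by edgeR or DESeq2 and 0 had an unadjusted p under 0.05. In the difference of changes edgeR called 0 of 6, with 2 at an unadjusted p under 0.05, and DESeq2 called 1.

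The 8 blood and immune markers summed to 0.632 to 2.45 CPM in GV oocytes of batch A and to at most 6.45 CPM in batch B. In MII oocytes they summed to 2.39 to 3.29 CPM, except in oocyte 1, with 18.85. In either batch 0 of 1 tested were called by edgeR or DESeq2, and 0 had an unadjusted p under 0.05. The difference of changes was positive for Hbb-bs (5.4, adjusted p = 0.00892), but this rests on MII oocyte 1, without which it was 1.94 (adjusted p = 0.446). The part of these markers in the changes of the Nlrp genes was not tested.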

How the data were processed

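The authors' deposited tables hold expected counts per gene and per transcript from RSEM 1.3.1 and counts per gene from HTSeq 0.12.4. By the submitters' processing notes reads were trimmed with Trim Galore 0.6.4 and aligned with STAR 2.7.6a to mm10. The study names GENCODE VM20. Here release M21 was used, matched without version numbers, and 54723 of 54752 genes and 138789 transcripts matched. All columns were mapped to oocytes (0 left over).

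Expected counts were rounded and the 92 spike-ins left out. Within each batch, edgeR 4.0.16 (R 4.3.3, limma 3.58.1) was run with filterByExpr, TMM normalization and the quasi-likelihood test. Benjamini-Hochberg adjustment ran over all features tested, and a call needed an adjusted p under 0.05 and a fold over 2. The standard error is the log2 change divided by the root of F. The test of the difference of changes fitted all 4 groups. Alternatives were DESeq2 1.42.0, RLE and spike-in size factors, HTSeq counts, other filters, no fold threshold, a replicate block, batch as a covariate and left-out oocytes. The tests were checked on simulated data. Within each group no pair of oocytes had identical counts (0 pairs), and pairs differed by more than sampling noise. Sequence windows and figures used Python 3.11.15, numpy 2.4.6, pandas 2.3.3 and matplotlib 3.10.9.

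Members, gene lists and tests were chosen with earlier results of these data known. All 10 members were named. Transcripts were named from those with a mean of at least 10 counts in a group. From each list the genes past the test were named, and also some that did not pass or were not tested. The lists were markers of oocytes, of granulosa and cumulus and of blood and immune cells, other NLR genes, inflammasome partners, the subcortical maternal complex, partners of maternal NLRP proteins and dormant maternal transcripts. For likeness, the gene with the highest Pearson r was named for each member.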

Additional observations from a re-analysis of the deposited data

Results flagged for a closer look

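Nlrp2 changed differently in the 2 batches: the MII change of batch A minus the MI change of batch B was -1.23 on the log2 scale (edgeR, SE 0.231, adjusted p = 0.000794). Over 7 alternatives the adjusted p ran from 3.13e-05 to 0.00366. A direct test of the difference between the changes brought it out. In batch A 6 of 6 MII oocytes lay below all GV oocytes, and in batch B GV and MI oocytes overlapped. Stage, batch and maturing in culture or in the animal cannot be told apart here. Each member was also examined in the GV oocytes of both batches and in MII oocytes for a single oocyte far from the others, and 0 of 30 such groups held one.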

How the results depend on the processing

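Nlrp2 kept its direction and its call between GV and MII in all 20 alternatives, with a replicate block too (-1.11, adjusted p = 0.00211). The replicate numbers paired no oocytes by their values: 1 of 6 pairs in batch A and 0 of 10 in batch B matched best with their own number. With few spike-in counts in batch B, absolute amounts at MI were not measurable. In batch A, with 6 oocytes a stage, some small changes had an adjusted p under 0.05, such as Nlrp14-202 at -0.47 (edgeR, adjusted p = 0.0146). How small a change could be detected was not tested.

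Signs turned for Nlrp4a (-0.55), Nlrp4f (-0.55) and Nlrp9c (-0.69) with spike-in scaling. Nlrp9c also turned with an oocyte left out (-0.02 to 0). In batch B Nlrp4b turned with HTSeq counts (0.06), DESeq2 (0), RLE (0), without MI oocytes 4, 8 and 9 (0.02; with HTSeq counts as well, 0.05) and without MI oocyte 15 (0.03). Nlrp4c turned with HTSeq counts (0.06), without MI oocytes 4, 8 and 9 (0.08) and with both (0.18). HTSeq counts without those oocytes were chosen after seeing the data. In the difference of changes Nlrp4e turned without MI oocyte 15 (0.06) or MII oocyte 1 (0.02).

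Spike-in scaling raised the members called between GV and MII from 1 to 5 and dropping the fold threshold to 3. All genes called, 1095, became 1859 with no filter, 3919 with spike-in scaling, 2662 with no fold threshold and 653 with batch as a covariate. For MI, 15 genes became 40 with no filter, 121 with DESeq2, 36 without MI oocytes 4, 8 and 9, and 107 with batch as a covariate. By edgeR they became 0 with HTSeq counts (927 at an unadjusted p under 0.05), 0 with these counts without MI oocytes 4, 8 and 9 (885) and 0 with a replicate block (992). For the difference of changes, 608 genes became 1500 with no filter, 247 with HTSeq counts and 357 without MII oocyte 1.

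For transcripts between GV and MII, members called went from 2 to 13 with spike-in scaling, 1 with a replicate block and 6 with no fold threshold, and all called from 1252 to 4321, 532 and 2089. With the replicate block Nlrp2-202 (-2.27) lost its call. For MI, edgeR called 0 transcripts (1615 at an unadjusted p under 0.05), 2 with no filter and 1 at a mean of at least 50 counts, and DESeq2 103. The causes were not tested.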
